A study of Mus musculus with 15 samples.

Results

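Hematopoietic stem cells (HSCs) of the GFP1 bin, taken as the cells with the least remaining division label, were compared with the undivided HSC sort of the same kind of mice, called Total. The comparison took the 3 GFP1 and the 3 Total libraries out of 15 libraries in the series, and all 27994 of 31298 gene symbols whose linear value reached 1 in at least 3 libraries. The mice were hCD34-tTA x TetO-H2BGFP, in which human CD34 regulatory sequence drives a tetracycline transactivator that switches on a fusion of histone H2B with green fluorescent protein (GFP). Every group, Total included, carried both transgenes and received doxycycline at 1 mg/ml in the drinking water, which switches the label off, begun at an age of 2 to 4 months. HSCs were sorted from bone marrow as lineage-negative, Sca1+, c-Kit+ (LSK) cells lacking CD48 and Flk2 and carrying CD150. The sort was then either divided by remaining label into the bins GFP4, GFP3, GFP2 and GFP1 or kept whole. Replicates 1, 2 and 3 of every group differed in age (5, 5.5 and 6.5 months) and in the length of doxycycline treatment (12, 14 and 16 weeks). The labels state neither which end of the bin numbers held the most label, nor the gates, nor whether animals were pooled or shared between groups. A cell that never carried label and a cell that diluted it cannot be told apart in GFP1, and Total may itself contain GFP1 cells, in a share that the labels do not give. If the replicates were not separate animals, the p-values measure only the spread between these samples, which may be technical.

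H2B-GFP is built into chromatin and, once its gene is switched off, is shared out between daughter cells at each division, so that dim cells are read as cells with more divisions behind them. HSCs are mostly quiescent. They are held there in part by CDK inhibitors and FoxO factors, and they leave this state through D-type cyclins with CDK4 or CDK6, followed by E2F-driven S-phase genes and the later mitotic genes. In mouse marrow a share of HSCs is primed towards megakaryocytes, and HSC identity is tracked by genes such as Procr, Fgd5, Hlf and Mecom.

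Expression is given as the log2 value that the authors deposited, on a quantile-normalized scale on which every library has the same distribution of values. A difference is therefore relative to the other genes of a library, and in bulk RNA fewer cells of a type and less RNA per cell cannot be told apart. Read depth is unknown. Shares of a library's summed linear values are given in ppm. Over the 10275 genes averaging 10 ppm or more in the 6 libraries, replicates correlated with r between 0.935 and 0.950 in GFP1 and between 0.845 and 0.875 in Total. The markers for HSCs were present: the summed level of Procr, Fgd5, Hlf, Mecom, Slamf1, Kit and Ly6a was 1804 to 1828 ppm in GFP1 and 1815 to 2529 ppm in Total, against 2669 to 3941 ppm in the 9 other libraries. Kit, itself a sorted antigen, gave the largest part of this sum, with a mean of 1106 ppm over the 6 libraries. Of the 7 markers, 4 are among the genes lower in GFP1 described below. Libraries of both groups also held immunoglobulin transcripts, at 4.92% to 5.28% of the summed linear values in GFP1 and 4.34% to 5.49% in Total, while the GFP2, GFP3 and GFP4 libraries held 0.00726% to 0.0737%. B cells and plasma cells lie outside the sort gate, and both compared groups stand apart from the other 9 libraries in this way.

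More genes were called lower than higher in GFP1. With limma fitted to all 15 libraries and Benjamini-Hochberg adjustment over all genes at 0.05, 395 genes (1.41% of those tested) were lower in GFP1 and 89 (0.318%) were higher. A gene past this threshold is said to have risen or fallen. Counts of called list members below are to be read beside these shares of all genes tested. Without the immunoglobulin genes the counts were 394 lower and 66 higher, with median differences of -0.70 and 0.58 on the log2 scale. Most of these differences were moderate: 76 of the 394 and 8 of the 66 reached 2-fold. The median over all genes tested was 0.00. With the replicate number as a block, which accounts for the shared age and time on doxycycline, 558 genes (1.99%) were lower and 156 (0.557%) higher. The counts fell to 172 and 25 without GFP1 replicate 3, to 226 and 50 without GFP1 replicate 1, and to 278 and 59 without GFP1 replicate 2. Fitted to the 6 libraries alone, 69 genes were lower and 20 higher. With the replicate block on these 6 libraries, 178 were lower and 101 higher, so that 36.2% of the calls were higher, against 18.4% in the fit to 15 libraries. In that setting 44 of the 66 called genes named by rule remained called. Among the 22 lost were Cbx6, Cbx7, Ccnd2, Cdca7, Cdk6, Edem1, Emcn, Ezh1, F2r, Irf1, Ldb1, Ltbp3, Mecom, Mylk, Neo1, Psd3, Rpl7, Rps4x, Sesn1 and Slc2a1, with limma adjusted p between 0.0521 for Irf1 and 0.136 for Edem1.

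**Figure D1:**
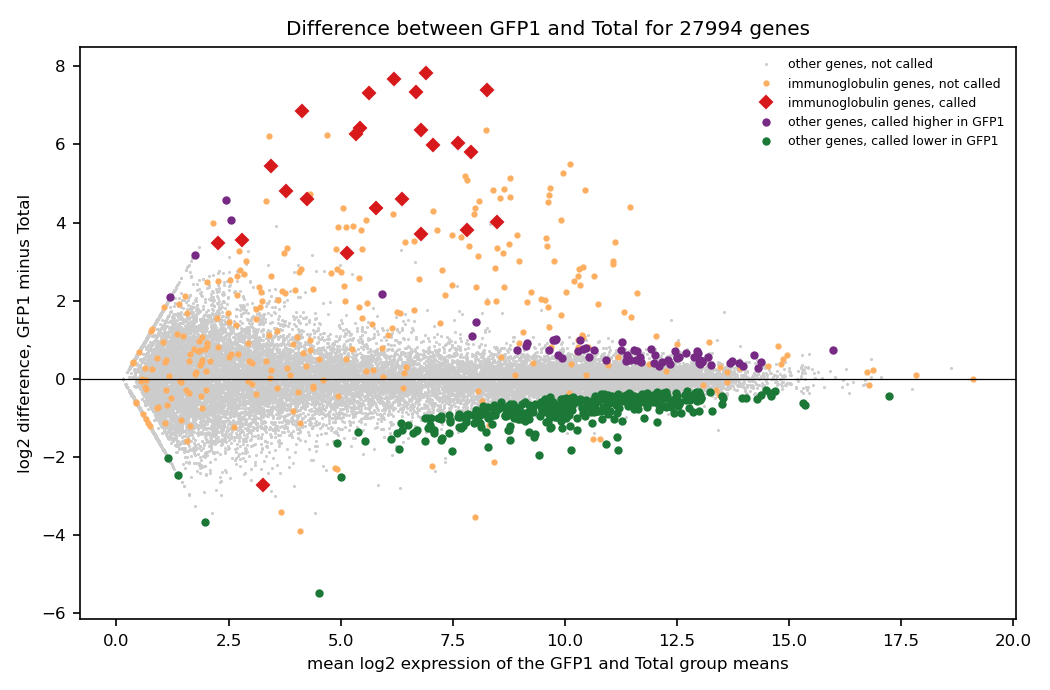
Each point is 1 of 27994 genes, with the average of the GFP1 and Total group means on the horizontal axis (log2 expression) and the log2 difference GFP1 minus Total on the vertical axis. Genes called lower (green, 394) outnumber the non-immunoglobulin genes called higher (purple, 66), and the largest positive differences belong to immunoglobulin genes (red and orange).

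Many genes that mark HSCs fell in GFP1. Of 42 genes in the HSC signature, 20 were lower and 0 higher, with a median difference of -0.41. All 3 GFP1 libraries lay below all 3 Total libraries for 24 of the 42, where 8.66% of all genes tested did so. Sult1a1, which encodes a sulfotransferase (chr7:126672865-126676432, GRCm38), had values of 10.29, 10.41 and 10.10 in GFP1 and 12.05, 11.97 and 12.25 in Total. It fell by 1.82 (SE 0.11, limma adjusted p = 5.21e-08), the smallest adjusted p of the list. Its level was lower in each GFP1 library than in any other library of the series, with group means of 13.35 in GFP4, 12.86 in GFP3 and 12.20 in GFP2. The HSC count was 13 without GFP1 replicate 3, 12 without Total replicate 1 and 8 in the 6 libraries alone.

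Cyp26b1 encodes an enzyme that degrades retinoic acid (chr6:84571414-84593908). Its GFP1 values of 7.42, 7.43 and 7.39 lay within a narrow band, well below the Total values of 8.95, 9.15 and 9.39. The difference was -1.75 (SE 0.19, limma adjusted p = 5.47e-05). Procr encodes the endothelial protein C receptor, CD201, which is used to enrich for HSCs (chr2:155751117-155755471). Procr was at 9.46, 10.54 and 10.24 in GFP1 and at 11.42, 11.84 and 12.00 in Total, so replicate 1 was the lowest in both groups. It fell by 1.67 (SE 0.35, limma adjusted p = 0.0444), and by the same amount with adjusted p = 0.000667 under the replicate block. This call was lost in 9 of 18 alternative settings.

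Transcription factors of HSC self-renewal were among the fallers. Hlf was at 12.85, 12.90 and 12.89 in GFP1 against 13.85, 13.66 and 13.63 in Total, a difference of -0.83 (SE 0.09, limma adjusted p = 5.47e-05). Mecom, which encodes EVI1, was at 12.02, 12.23 and 12.18 against 12.86, 12.89 and 12.33, a difference of -0.55 (SE 0.12, limma adjusted p = 0.0163; 0.118 with the replicate block on 6 libraries). Total replicate 3 was the library nearest to GFP1 for Mecom. Fgd5, an exchange factor whose locus is used as an HSC reporter, was at 10.59, 10.71 and 10.92 against 11.46, 11.54 and 11.82, a difference of -0.87 (SE 0.15, limma adjusted p = 0.00497).

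Other HSC markers did not pass the test. Slamf1, which encodes the sorted antigen CD150, differed by -0.12 (SE 0.11, limma adjusted p = 0.767), and Kit by 0.07 (SE 0.23, adjusted p = 0.968). Kit was at 14.63 in Total replicate 3 and at 15.39 and 15.69 in the other Total libraries, around GFP1 values of 15.23 to 15.35. Ly6a, which encodes Sca1, had a lower mean in GFP1, by -0.49 (SE 0.22, adjusted p = 0.39), with overlapping libraries. Vwf, a gene of platelet-biased HSCs, was at 13.41, 12.99 and 13.85 in GFP1 and at 13.53, 12.97 and 13.64 in Total, a difference of 0.04 (SE 0.23, adjusted p = 0.992). Replicate 2 was the lowest and replicate 3 the highest in both groups.

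**Figure D2:**
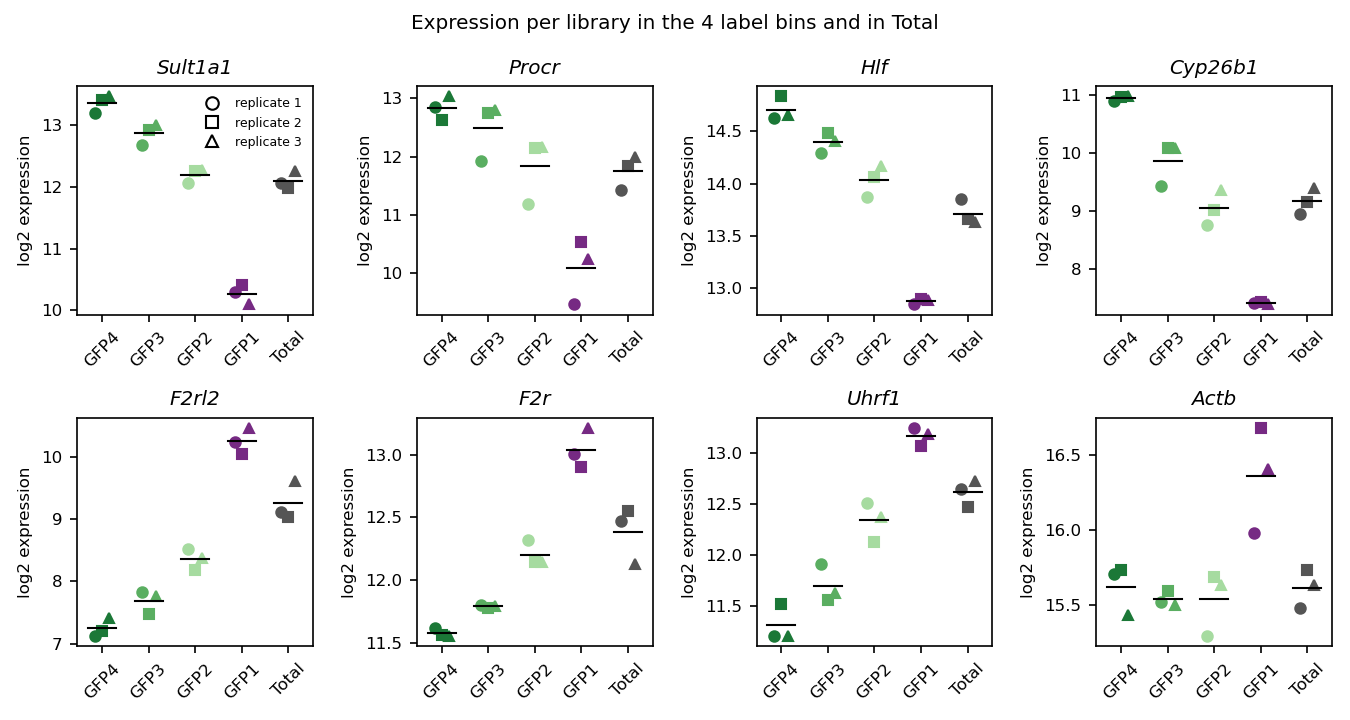
Log2 expression (vertical axes) of 8 genes in each of the 15 libraries, by group (horizontal axes); marker shape gives the replicate and the bar the group mean. In the first 4 genes the GFP1 libraries lie below Total and the other bins; in F2rl2, F2r, Uhrf1 and Actb they lie above all other libraries, and only Actb is level across Total and GFP2 to GFP4.

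The largest falls also included genes outside the HSC signature. Plk2, a kinase gene that p53 can induce (chr13:110395046-110400844), was at 8.14, 8.68 and 8.58 in GFP1 against 10.17, 10.88 and 10.18 in Total, the largest fall among named genes other than immunoglobulin genes at -1.94 (SE 0.32, limma adjusted p = 0.0111). Tns2, which encodes a focal adhesion protein, fell by 1.83 (SE 0.25, adjusted p = 0.00285), from 11.14, 10.96 and 11.10 to 8.85, 9.37 and 9.49. Trib3, a pseudokinase gene of the integrated stress response, fell by 1.49 (SE 0.18, adjusted p = 0.000161), and its GFP1 libraries spanned only 8.51 to 8.61. Unc45b, a myosin chaperone gene, fell by 1.58, and Mettl7a1, a methyltransferase-like gene, by 1.48, both with adjusted p = 5.47e-05. Ccl4, which encodes a chemokine, fell by 1.37 (SE 0.30, adjusted p = 0.0358), with GFP1 values of 7.88, 9.10 and 8.54 and Total values of 9.49, 10.16 and 9.99. The Ccl4 call was lost in 8 of 18 alternative settings, among them median-of-ratios rescaling and array weights.

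Genes tied to HSC ageing fell in part. Of 25 such genes, 6 were lower and 0 higher, with a median of -0.30; the replicate block gave 10 lower. Alcam, an adhesion molecule gene (chr16:52248996-52454074), was at 8.63, 8.67 and 8.57 in GFP1 and at 10.06, 10.29 and 9.78 in Total, a fall of -1.42 (SE 0.17, limma adjusted p = 0.00021). The keratin gene Krt18 was at 11.49, 11.50 and 11.53 against 12.03, 11.99 and 12.41, a fall of -0.64 (SE 0.10, adjusted p = 0.00239). Gda, a guanine deaminase gene, differed by -0.92 and Neo1, a netrin receptor gene, by -0.97. Procr, already described, belongs to this list as well. The count was 2 without GFP1 replicate 1, 3 without Total replicate 1, 3 without Total replicate 2, 4 without Total replicate 3 and 2 in the 6 libraries alone.

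Genes of quiescence and G1 entry moved in both directions: of 27 genes, 4 fell and 1 rose, with a median of 0.09. Foxo3, a transcription factor needed to keep HSCs quiescent (chr10:42181841-42276755), was at 9.21, 9.09 and 8.96 in GFP1 and at 10.22, 10.04 and 10.22 in Total. It fell by 1.07 (SE 0.14, limma adjusted p = 0.000322). Its group means in GFP2, GFP3 and GFP4 were 9.85, 9.94 and 9.88, close to each other and to the Total mean of 10.16, so the low level stood in GFP1. Ndn, which encodes the growth suppressor necdin, fell by 0.86 (SE 0.12, adjusted p = 0.00077). Cdkn1c encodes the CDK inhibitor p57. It was at 9.28, 9.52 and 9.83 in GFP1 and at 10.33, 10.25 and 10.82 in Total. The difference was -0.92 (SE 0.20, limma adjusted p = 0.0294), and this call was lost in 6 of 18 alternative settings. Among them were those without GFP1 replicate 1 or 2, or without Total replicate 1 or 3. Ccnd2, which encodes cyclin D2, was at 13.17, 13.46 and 13.21 against 13.74, 13.74 and 13.71, a fall of -0.45 (SE 0.09, adjusted p = 0.0111). Cdk6, which encodes the kinase partner of D-type cyclins, was at 13.99, 13.93 and 13.77 against 13.51, 13.56 and 13.37. It rose by 0.42 (SE 0.10, adjusted p = 0.0296), and this call was lost in 8 of 18 alternative settings, among them those without GFP1 replicate 1, GFP1 replicate 2, Total replicate 1 or Total replicate 3. The count of falls in the list was 2 without GFP1 replicate 1.

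S-phase genes lay higher in GFP1, with few single genes past the threshold. Of 51 genes, 6 rose and 0 fell, the median was 0.34, and 36 had all GFP1 libraries above all Total libraries, where 6.43% of all genes tested did so. Uhrf1, which brings the maintenance methyltransferase to replicated DNA (chr17:56303321-56323486), was at 13.25, 13.07 and 13.19 in GFP1 and at 12.65, 12.47 and 12.73 in Total. It rose by 0.55 (SE 0.12, limma adjusted p = 0.0206). Dnmt1, that methyltransferase, was at 14.07, 13.82 and 14.02 against 13.64, 13.36 and 13.53, a rise of 0.46 (SE 0.11, adjusted p = 0.0335). Chaf1a, a subunit gene of the histone chaperone CAF-1, rose by 0.56 (SE 0.13, adjusted p = 0.0308), and Cdca7, a cofactor gene of a nucleosome remodeler, by 0.35 (SE 0.09, adjusted p = 0.0433). The Cdca7 call was lost in 10 of 18 alternative settings, among them those leaving out any 1 of the 6 libraries. The replicate block gave 11 genes higher. The count was 0 without GFP1 replicate 1, 0 without GFP1 replicate 3, 3 without GFP1 replicate 2, 1 without Total replicate 2 and 0 in the 6 libraries alone.

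Mitotic genes were nearly all on the higher side, but none of them passed the test. Of 58 G2 and M phase genes, 57 had a positive difference, with a median of 0.51. In 53 all GFP1 libraries lay above all Total libraries, where 6.43% of all genes tested did so. At an unadjusted limma p under 0.05, 36 were higher, as were 1370 of all 27994 genes tested. By limma 0 passed the adjusted threshold, and the smallest adjusted p was 0.0935, for Incenp. The count rose to 2 with the replicate block and to 17 with the block in the 6 libraries alone. Mki67, the proliferation marker Ki-67, was at 14.25, 13.92 and 14.14 in GFP1 and at 13.84, 13.57 and 13.59 in Total, a difference of 0.44 (SE 0.27, adjusted p = 0.6). Replicate 1 was the highest in both groups. The list's median level was 12.02, 11.80 and 12.04 in the GFP1 libraries, 11.58, 11.33 and 11.49 in Total, and 9.75 to 10.16 in GFP4.

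**Figure D3:**
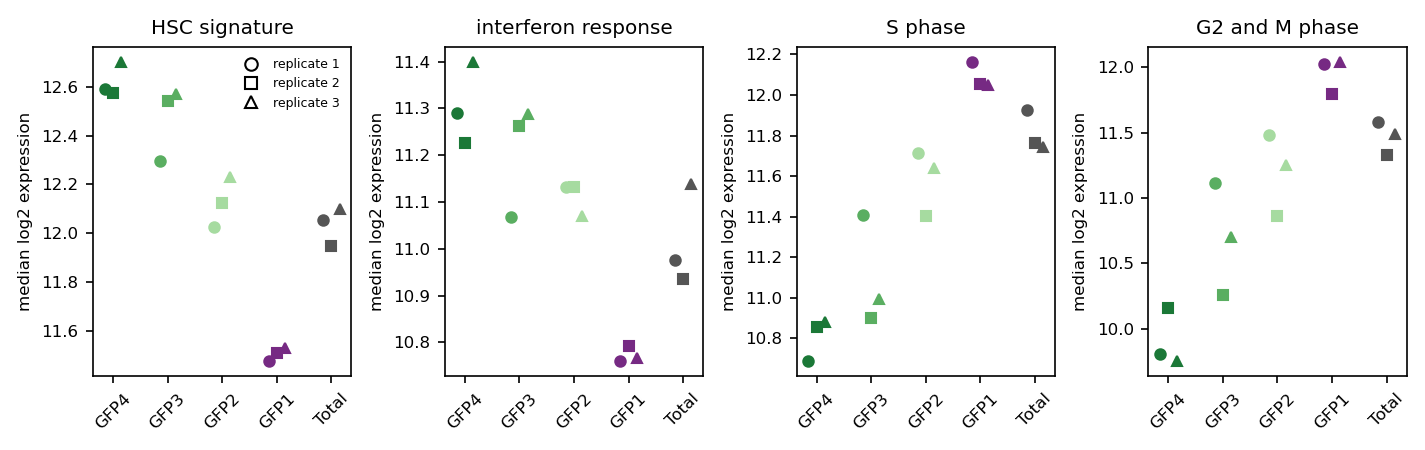
Median log2 expression (vertical axes) of 4 gene lists in each library, by group (horizontal axes), with marker shape for the replicate. The HSC signature and interferon medians of the GFP1 libraries lie below those of Total and of every other bin, and the S phase and the G2 and M phase medians lie above them.

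The promoters of these cell-cycle genes are shown because most members of both lists differed in the same direction. RefSeq windows of 250 bases before to 50 bases after the transcript start (GRCm38.p6) were matched by symbol for 40 of the 51 S-phase and 49 of the 58 mitotic genes. The cell cycle homology region (CHR), an element of G2 and M phase promoters, was searched as TTTGAA on both strands; 35 of 49 windows (71.4%) held it, against 18.1% of all 27025 windows. The E2F site was searched as TTTCCCGC or TTTGGCGC on both strands, and 13 of 40 S-phase windows (32.5%) held it, against 1.63% of all windows. Among the 4 S-phase genes that rose and had a window, 1 (25%), Cdca7, held it. Matches of different motifs may overlap, and a match describes letters only. Below, capitals mark the match, on either strand: the E2F letters in Cdca7 and the CHR letters in Bub1b, a spindle checkpoint gene, and Ect2, a cytokinesis gene. Bub1b and Ect2 were picked for a match and a small p after their values were seen; their differences were 0.69 (SE 0.19, limma adjusted p = 0.102) and 0.71 (SE 0.22, adjusted p = 0.153; 0.0179 with the replicate block).
Cdca7 (chr2:72475969-72476268, plus strand): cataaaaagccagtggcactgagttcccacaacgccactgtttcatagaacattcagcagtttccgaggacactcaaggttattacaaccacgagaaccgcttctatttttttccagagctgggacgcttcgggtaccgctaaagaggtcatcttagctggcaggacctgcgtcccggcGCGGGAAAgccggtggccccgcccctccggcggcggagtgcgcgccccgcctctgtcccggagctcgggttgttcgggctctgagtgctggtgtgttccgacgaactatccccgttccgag
Bub1b (chr2:118597961-118598260, plus strand): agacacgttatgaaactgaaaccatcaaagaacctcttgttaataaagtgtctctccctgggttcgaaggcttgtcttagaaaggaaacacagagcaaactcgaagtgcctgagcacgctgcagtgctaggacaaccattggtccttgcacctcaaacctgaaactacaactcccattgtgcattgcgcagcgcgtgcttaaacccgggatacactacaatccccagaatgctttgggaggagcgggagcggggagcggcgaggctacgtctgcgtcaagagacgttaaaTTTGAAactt
Ect2 (chr3:27153829-27154128, minus strand): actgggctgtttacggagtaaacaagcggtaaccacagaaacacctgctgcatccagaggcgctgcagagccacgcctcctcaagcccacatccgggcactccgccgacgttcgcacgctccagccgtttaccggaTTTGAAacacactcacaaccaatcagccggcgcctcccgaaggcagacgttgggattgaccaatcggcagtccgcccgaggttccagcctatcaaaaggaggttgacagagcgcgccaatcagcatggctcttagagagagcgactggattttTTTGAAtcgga

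Some thrombin receptor and platelet genes rose in GFP1. In a list of 32 genes of megakaryocytes and platelets, 4 were called higher and 2 lower, with a median of 0.26. F2rl2 encodes the receptor PAR3 (chr13:95696853-95702739) and was at 10.24, 10.05 and 10.46 in GFP1 and at 9.10, 9.04 and 9.61 in Total, with replicate 3 highest in both. It rose by 1.00 (SE 0.19, limma adjusted p = 0.00918). F2r, its neighbour on the chromosome, encodes PAR1 (chr13:95601803-95618487); it was at 13.01, 12.90 and 13.21 against 12.47, 12.55 and 12.13, a rise of 0.65 (SE 0.11, adjusted p = 0.00252; 0.0841 with the replicate block on 6 libraries). Gp5, a platelet glycoprotein gene, rose by 0.73 (SE 0.17, adjusted p = 0.0291), and Plek, which encodes the platelet kinase substrate pleckstrin, by 0.65 (SE 0.13, adjusted p = 0.0107). Mylk, a myosin light chain kinase gene, fell by 0.78 (SE 0.15, adjusted p = 0.0103). The replicate block gave 5 higher and 2 lower on 15 libraries, and 5 higher and 0 lower on the 6 libraries. Without GFP1 replicate 3 the count was 1 higher and 0 lower, and in the 6 libraries alone it was 1 higher and 0 lower. The number lower was 0 without Total replicate 1 and 1 without GFP1 replicate 2. The summed level of the platelet markers Pf4, Ppbp, Gp1ba and Gp9 was 432 to 670 ppm in GFP1, 210 to 461 ppm in Total and 69.2 to 195 ppm in the other bins. None of the 4 was called in the fit to 15 libraries, while Pf4 was called higher with the replicate block on the 6 libraries. The part of these markers in these differences was not tested.

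Itga2b, which encodes the integrin CD41 of megakaryocyte-primed HSCs (chr11:102453297-102470122), was at 14.32, 13.98 and 14.68 in GFP1 and at 13.40, 13.26 and 13.79 in Total. The libraries did not overlap, but the difference of 0.84 (SE 0.21) had a limma adjusted p of 0.0669, and of 0.0111 with the replicate block. Gata1, the master regulator of both lineages, was at 12.03, 11.41 and 11.78 against 11.08, 10.71 and 11.11. Its difference of 0.77 (SE 0.37, adjusted p = 0.453) did not pass in the fit to 15 libraries and passed with the replicate block on the 6 libraries (adjusted p = 0.0242), and its group means were 9.36 in GFP2 and 6.71 in GFP4. Of 18 erythroid-megakaryocyte regulators, 2 rose and 2 fell, with a median of 0.23. Those that rose were Slc22a3, a transporter gene, by 0.75 (SE 0.16, adjusted p = 0.0181) and Tuba8, a tubulin gene, by 0.71 (SE 0.17, adjusted p = 0.0396). Ldb1, a cofactor gene of the GATA1 complex, fell by 0.44 (SE 0.08, adjusted p = 0.00838). With the replicate block 4 rose and 3 fell, and with the block on the 6 libraries 6 rose and 0 fell. Without GFP1 replicate 3 the count was 0 in both directions, without Total replicate 3 it was 0 higher, without GFP1 replicate 2 or Total replicate 1 it was 1 each way, and without Total replicate 2 it was 1 higher. None of 21 late erythroid genes passed (median 0.19; 4 higher and 0 lower at an unadjusted p under 0.05).

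Other large rises were of several kinds. Emilin2, an extracellular glycoprotein gene (chr17:71252172-71311978), had the largest rise among named genes other than immunoglobulin genes: it was at 10.33, 10.17 and 10.46 in GFP1 and at 9.25, 9.07 and 9.55 in Total, a difference of 1.03 (SE 0.21, limma adjusted p = 0.014). P2ry1, which encodes an ADP receptor of platelets, rose by 0.98 (SE 0.22, adjusted p = 0.0259). Arhgap19, a GTPase-activating protein gene, rose by 0.95 (SE 0.16, adjusted p = 0.00308) with values of 11.68, 11.76 and 11.79 against 10.87, 10.77 and 10.74. Bmp2k, a kinase gene, rose by 0.77 and Robo3, a guidance receptor gene, by 0.92, the latter with an adjusted p of 0.0499 and lost in 11 of 18 alternative settings.

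A few genes were high in GFP1 while the other group means lay close together. Actb, which encodes beta-actin and is often used as a reference gene, was at 15.98, 16.68 and 16.41 in GFP1 and at 15.48, 15.73 and 15.64 in Total. It rose by 0.74 (SE 0.15, limma adjusted p = 0.0296; lost in 7 of 18 alternative settings). Its group means in GFP2, GFP3 and GFP4 were 15.54, 15.54 and 15.62, next to 15.62 in Total. Psd3, an exchange factor gene, was at 10.75, 10.99 and 10.87 against 10.38, 10.29 and 9.58 (difference 0.79, SE 0.19, adjusted p = 0.0408), with means of 10.18 to 10.21 in the other bins. For Psd3, Total replicate 3 was the lowest of all 15 libraries. The Psd3 call was lost in 8 of 18 alternative settings, among them those without Total replicate 3 or without any 1 GFP1 replicate. Asb1, an ankyrin repeat gene, rose by 0.84 (SE 0.17, adjusted p = 0.0132), from a Total mean of 8.72 and means of 8.68 to 8.99 in the other bins.

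A part of the interferon-stimulated genes fell in GFP1. Of 38 such genes, 10 were lower and 0 higher, with a median of -0.37, where 1.41% of all genes tested were called lower. In 22 of the 38 all GFP1 libraries lay below all Total libraries, where 8.66% of all genes tested did so. Fitted to the 6 libraries alone, 2 of the 38 were lower. Oasl2, of the antiviral oligoadenylate synthetase family (chr5:114896936-114912234), was at 11.50, 11.51 and 11.40 in GFP1 and at 12.30, 12.14 and 12.12 in Total. It fell by 0.72 (SE 0.09, limma adjusted p = 0.00021). Ifi44 was at 10.82, 10.90 and 10.80 against 11.76, 11.64 and 11.38, a fall of -0.75 (SE 0.10, adjusted p = 0.000331). Gbp2, a guanylate-binding protein gene, was at 10.85, 10.74 and 10.75 against 11.32, 11.36 and 11.45, a fall of -0.60 (SE 0.09, adjusted p = 0.0022). Irf1, a transcription factor of the response, fell by 0.54 (SE 0.09, adjusted p = 0.00327). For these 4 genes every GFP1 library lay below every Total library. Of the 11 tested genes with Gbp symbols, looked up after their values were seen, 5 fell: Gbp2, Gbp3, Gbp7, Gbp8 and Gbp9, by up to 1.26 for Gbp9. Close copies in this family can share reads, so their single values are uncertain.

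Promoters of 4 of the genes that fell are shown with the interferon-stimulated response element (ISRE), which STAT and IRF factors bind. It was searched on both strands as GAAA, any 2 bases and GAAA again. RefSeq windows were matched for 25 of the 38 genes, and 14 (56%) held a match, against 3.49% of all 27025 windows; among the 9 genes that fell and had a window, 6 (66.7%) held it. The genes shown had a match and the smallest p: Gbp2, Rsad2 (viperin; difference -0.60), Ddx58 (the RNA sensor RIG-I; -0.47) and Ifit1 (an antiviral RNA-binding protein; -0.84). Rsad2, Ddx58 and Ifit1 were singled out after their values were seen. Capitals mark the match, which starts at -59, -120, 2 and -104 relative to the transcript start, and Ifit1 holds 2.
Gbp2 (chr3:142620413-142620712, plus strand): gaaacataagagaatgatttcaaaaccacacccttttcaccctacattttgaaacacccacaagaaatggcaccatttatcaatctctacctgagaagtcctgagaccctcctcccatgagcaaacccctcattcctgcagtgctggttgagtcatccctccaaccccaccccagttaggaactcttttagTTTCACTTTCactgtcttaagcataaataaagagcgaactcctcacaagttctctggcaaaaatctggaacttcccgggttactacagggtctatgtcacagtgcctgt
Rsad2 (chr12:26456403-26456702, minus strand): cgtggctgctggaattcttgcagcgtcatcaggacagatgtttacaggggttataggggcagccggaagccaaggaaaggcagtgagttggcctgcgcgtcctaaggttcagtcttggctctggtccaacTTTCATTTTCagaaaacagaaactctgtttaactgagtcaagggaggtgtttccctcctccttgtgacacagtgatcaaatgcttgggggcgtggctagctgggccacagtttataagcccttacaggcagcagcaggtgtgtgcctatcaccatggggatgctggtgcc
Ddx58 (chr4:40239776-40240075, minus strand): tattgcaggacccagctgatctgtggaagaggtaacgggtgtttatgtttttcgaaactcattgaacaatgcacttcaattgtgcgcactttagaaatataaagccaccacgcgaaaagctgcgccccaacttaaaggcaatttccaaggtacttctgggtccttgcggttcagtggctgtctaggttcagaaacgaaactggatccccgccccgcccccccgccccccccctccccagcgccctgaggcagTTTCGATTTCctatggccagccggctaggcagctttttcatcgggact
Ifit1 (chr19:34640639-34640938, plus strand): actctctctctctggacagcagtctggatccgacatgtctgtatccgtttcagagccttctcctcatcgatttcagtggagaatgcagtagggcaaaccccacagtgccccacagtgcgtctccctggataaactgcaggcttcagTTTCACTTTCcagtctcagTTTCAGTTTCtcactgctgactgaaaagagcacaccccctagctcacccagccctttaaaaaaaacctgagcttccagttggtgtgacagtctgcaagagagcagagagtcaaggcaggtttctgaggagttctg

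**Figure D4:**
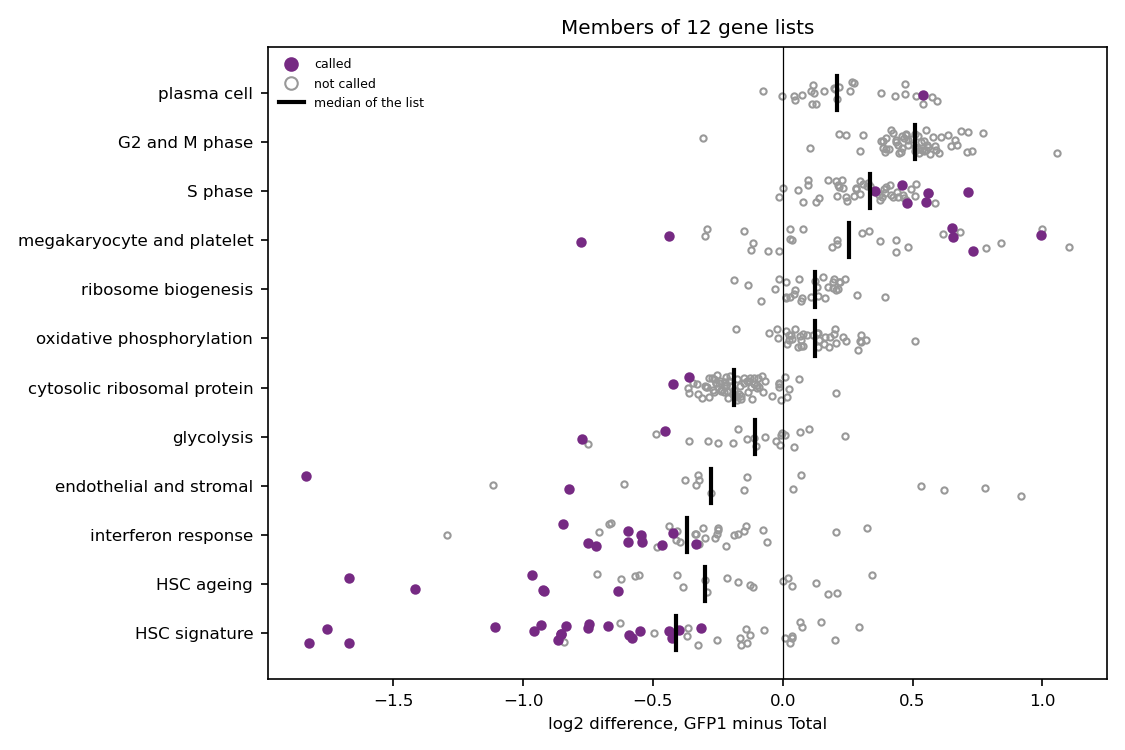
Log2 difference GFP1 minus Total (horizontal axis) of each tested member of 12 gene lists (rows), filled where called; the thick bar is the list's median. Called members of the HSC signature, ageing and interferon lists all lie left of 0 and called S-phase members right of it, while the ribosomal protein genes form a narrow band with a median of -0.19.

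Chromatin regulators changed in single members. Of 11 tested genes of Polycomb repressive complex 2 (PRC2), which methylates histone H3 at lysine 27, 2 fell, with a median of 0.02. Phf1, an accessory subunit gene (chr17:26933052-26937908), was at 9.48, 9.39 and 9.09 in GFP1 and at 10.26, 10.33 and 10.27 in Total, a fall of -0.97 (SE 0.13, limma adjusted p = 0.000425). Ezh1, the methyltransferase gene of resting cells, was at 11.29, 11.13 and 11.04 against 11.75, 11.67 and 11.46, a fall of -0.47 (SE 0.10, adjusted p = 0.0234). Ezh2, the methyltransferase gene of dividing cells, had a difference of 0.23 (SE 0.14, adjusted p = 0.584). Of 20 PRC1 genes 2 fell, the chromobox genes Cbx6 and Cbx7, each by -0.50, with a list median of -0.06. Of 15 DNA methylation genes 2 rose, Uhrf1 and Dnmt1, with a median of 0.08. The PRC1 count was 0 without GFP1 replicate 2, 0 without GFP1 replicate 3, and 1 without Total replicate 1 or 2. The DNA methylation count was 0 without GFP1 replicate 1, GFP1 replicate 3 or Total replicate 2 and 1 without Total replicate 3. The PRC2 count was 1, Phf1, without GFP1 replicate 2 or 3 or Total replicate 1 or 2.

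Metabolic and ribosomal genes gave small differences. Ldhb, a lactate dehydrogenase subunit gene, was at 11.33, 11.19 and 11.20 in GFP1 and at 12.00, 11.79 and 12.26 in Total, a fall of -0.77 (SE 0.11, limma adjusted p = 0.000677). Slc2a1, which encodes the glucose transporter GLUT1, fell by 0.46 (SE 0.11, adjusted p = 0.0326). These were 2 of 22 glycolysis genes, with a median of -0.11. Of 73 cytosolic ribosomal protein genes, 68 had a negative difference (median -0.19), and 2 fell: Rps4x by 0.42 (SE 0.08, adjusted p = 0.0114) and Rpl7 by 0.36 (SE 0.08, adjusted p = 0.0228). The ribosomal count was 0 without GFP1 replicate 3 and 1 without GFP1 replicate 1, and the glycolysis count was 1, Ldhb, when any of the 6 libraries was left out. The ribosome biogenesis list (31 genes, median 0.12) and the oxidative phosphorylation list (38 genes, median 0.12) had no gene past the threshold, with 3 and 5 genes higher and none lower at an unadjusted p under 0.05.

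Surface and signalling genes followed with 1 or 2 members each. Cldn5, the tight-junction gene of endothelium, was at 6.12, 7.02 and 6.56 in GFP1 and at 8.02, 9.05 and 8.14 in Total, a fall of -1.84 (SE 0.33, limma adjusted p = 0.00728). Emcn, which encodes the sialomucin endomucin, present on HSCs as well, fell by 0.82 (SE 0.16, adjusted p = 0.0107). They were the called members of a 17-gene endothelial and stromal list, whose 6 defining markers summed to 95.9 to 148 ppm in GFP1 and 62.5 to 144 ppm in Total; the part of endothelial RNA was not tested. In TGF-beta signalling 2 of 25 fell, Eng, which encodes the co-receptor endoglin, by 0.58 (SE 0.10, adjusted p = 0.00286) and Ltbp3, a latent TGF-beta binding protein gene, by 0.48. Among 20 p53 targets Plk2 and Sesn1, a stress-response gene, fell, the latter by 0.36. Gata3 was the called member of 25 lymphoid genes, lower by -0.66 (SE 0.11, adjusted p = 0.00239), and Klrb1c, which encodes NK1.1, that of 21 T and NK cell genes, lower by -1.15 (SE 0.24, adjusted p = 0.0165; not called without GFP1 replicate 1, GFP1 replicate 2 or Total replicate 3). Without GFP1 replicate 3 the endothelial count was 1. The TGF-beta count was 1 lower when any library but Total replicate 2 was left out, and the p53 count was 0 without GFP1 replicate 1 and 1 without any other library but Total replicate 3.

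Several lists had no member past the threshold in either direction. These were the multipotent progenitor (12 genes), granulocyte-monocyte (25), B cell (15), neutrophil (13), macrophage and dendritic (17), mast cell, basophil and eosinophil (17), MHC (23), immediate early (28), mitochondrially encoded (13), cholesterol synthesis (23) and sort gate (14) genes. At an unadjusted p under 0.05 each had between 0 and 6 members in either direction, against 1370 higher and 1947 lower of all 27994 genes tested. The 6 were granulocyte-monocyte genes (higher) and MHC genes (lower). The replicate block on 15 libraries called 1 multipotent progenitor gene higher. It called 1 neutrophil, 1 MHC, 1 immediate early, 1 cholesterol synthesis and 2 mitochondrially encoded genes lower. On the 6 libraries the block called Nkg7 higher and the immediate early genes Dusp2 and Egr1 lower. Mpo, the myeloperoxidase gene of granulocyte precursors, was at 14.37, 14.99 and 13.85 in GFP1 and at 11.98, 12.75 and 13.34 in Total, without overlap. Its difference of 1.71 (SE 0.59) had a limma adjusted p of 0.246. Cd34 differed by 0.22 (SE 0.09, adjusted p = 0.366) and Cd48, the antigen gated against, by 0.76 (SE 0.54, adjusted p = 0.677). Macrophage marker RNA varied within groups: the summed level ran from 69.8 to 772 ppm in GFP1 and from 119 to 451 ppm in Total, highest in replicate 2 of both.

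The immunoglobulin load overlapped between the groups, which were set against each other for that reason, while single variable segments differed. The share of summed linear values was 5.12% ± 0.18 (SD, n = 3) in GFP1 and 4.87% ± 0.58 (SD, n = 3) in Total, given as a description. The kappa constant gene Igkc was the top-ranked gene in all 6 libraries, so it stood at the highest value of the scale, 19.12, in each. A difference in Igkc could not have been seen, and Igkc added the same linear value to each share. Without Igkc the shares were 3.57% ± 0.18 (SD, n = 3) in GFP1 and 3.31% ± 0.58 (SD, n = 3) in Total. The scale fixes the values of the top ranks, which limits how far these shares can differ. None of the 13 constant genes passed the limma test in the fit to 15 libraries. At an unadjusted p under 0.05 in that fit, 2 were higher (Ighg1 and Iglc2) and 0 lower. The fit pools the spread over all groups, so that Igha had an SE of 3.01, with SDs of 0.11 in GFP1 and 0.84 in Total. With the replicate block on the 6 libraries no constant gene passed either (smallest limma adjusted p = 0.367, for Ighm). Their levels varied between the libraries of a group: Ighm, the IgM constant gene, was at 17.75, 15.27 and 17.94 in GFP1 and at 17.75, 14.77 and 17.75 in Total, with replicate 2 low in both. Ighg1 was at 4.51, 13.74 and 12.88 against 2.32, 7.90 and 5.64, a difference of 5.09 (SE 2.24, limma adjusted p = 0.405). Igha, the IgA gene, was at 17.94, 17.94 and 17.75 against 17.29, 18.75 and 17.29.

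Variable segments carried all 24 immunoglobulin calls. Of 293 tested, 23 rose and 1 fell, with a median of 1.34. A segment could enter the test through the 3 GFP1 libraries alone, or through the 3 Total libraries alone. The set tested thus depends on the values compared, and the split and the median only describe that set. Ighv5-16 (chr12:113838526-113839010) was at 11.20, 11.18 and 10.09 in GFP1 and at 4.17, 3.40 and 1.42 in Total, a difference of 7.83 (SE 0.81, limma adjusted p = 5.47e-05). Ighv14-4 was at 8.39, 8.19 and 8.86 against 1.22, 2.76 and 2.68, a difference of 6.26 (SE 0.71, adjusted p = 0.000122), and Ighv1-58 differed by 7.30 (SE 0.85, adjusted p = 0.000161). The segment that fell, Ighv1-11, was at 1.31, 2.97 and 1.48 against 5.84, 4.15 and 3.90, a difference of -2.71 (SE 0.67, adjusted p = 0.0445). It averaged only 0.443 ppm and stood at the lowest value, 0.14, throughout the other bins. This call was lost in 10 of 15 alternative settings (limma adjusted p = 0.153 with the replicate block on the 6 libraries). The number of segments above a log2 value of 8 was 116, 133 and 128 in GFP1 and 60, 83 and 67 in Total. The groups did not overlap (exact permutation test, two-sided, p = 0.1, the smallest possible). Related segments can share reads, so single segments are uncertain.

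**Figure D5:**
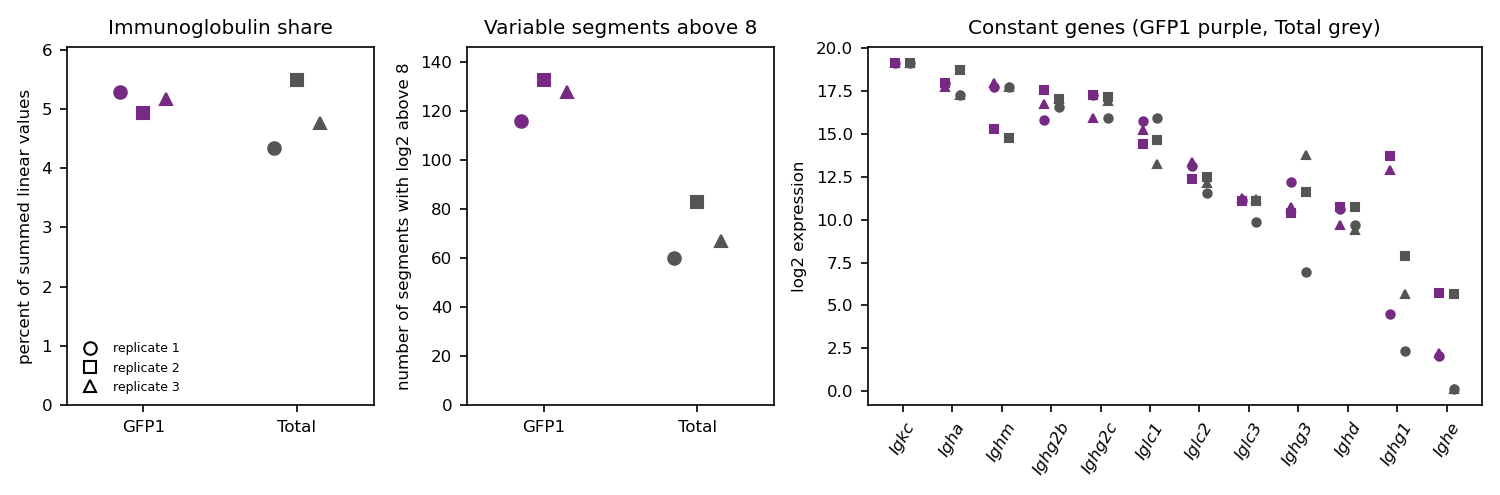
Left, immunoglobulin genes as a percent of summed linear values in each GFP1 and Total library; middle, the number of variable segments with a log2 value above 8; right, log2 expression of 12 constant genes, with marker shape for the replicate. The shares overlap (4.92% to 5.28% and 4.34% to 5.49%), whereas every GFP1 library has more variable segments above 8 (116 to 133) than any Total library (60 to 83).

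Plasma cell genes other than immunoglobulins mostly did not pass. The joining chain gene Jchain was at 17.02, 16.94 and 17.29 in GFP1 and at 16.14, 17.54 and 16.04 in Total (difference 0.51, SE 1.81, limma adjusted p = 0.967). This SE includes the spread in the other bins, where Jchain ran from 3.51 to 11.67, while the SDs were 0.18 in GFP1 and 0.84 in Total. Mzb1, a secretory pathway gene of plasma cells, differed by 0.38 (SE 0.36, adjusted p = 0.796). With the replicate block on the 6 libraries the limma adjusted p was 0.779 for Jchain and 0.449 for Mzb1. Of 27 plasma cell genes 1 rose: Edem1, a gene of the degradation of misfolded glycoproteins, was at 12.62, 12.73 and 12.95 against 12.07, 12.57 and 12.03, a rise of 0.54 (SE 0.13, adjusted p = 0.0377), lost when any of the 6 libraries other than Total replicate 2 was left out. The 7 defining plasma cell markers summed to 3905 to 4912 ppm in GFP1, 2279 to 5718 ppm in Total and 183 to 349 ppm in the other bins. With the immunoglobulin percent of each library added as a covariate, a setting chosen after seeing the data, 227 genes were lower and 46 higher, and the HSC signature kept 13 lower; this covariate nearly separates GFP1 and Total from the other bins.

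The other bins were compared with the same Total libraries. Against Total, GFP2 had 89 genes lower (0.318%) and 3 higher (0.0107%), and 37 of the 89 were immunoglobulin genes. GFP3 had 411 lower (1.47%) and 188 higher (0.672%), and GFP4 had 1482 lower (5.29%) and 1317 higher (4.70%). All 4 comparisons share the Total libraries, so they are given side by side only. For Hlf the differences from Total were 0.32 in GFP2, 0.68 in GFP3 and 0.99 in GFP4, against -0.83 in GFP1; for Gp5 they were -0.59, -1.59 and -2.13, against 0.73. In 62 of the 66 non-immunoglobulin genes that rose, all 3 GFP1 libraries lay above all 12 other libraries, and in 384 of the 394 that fell they lay below them. Of 27510 genes not called, 797 lay above and 933 below all 12; the called genes had been selected for a difference from 3 of those 12 libraries.

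The same genes were then read in GFP2 and GFP4, whose libraries do not enter the difference GFP1 minus Total. They do enter the spread behind its calls, which was fitted to all 15 libraries. Called genes were thus selected in part for a low spread in these bins. The shares below are therefore not independent of the calls. Of the 66 that rose, 61 (92.4%) were also higher in GFP2 than in GFP4, and of the 394 that fell, 367 (93.1%) were also lower. Among genes not called that had a mean of at least 10 ppm, the corresponding shares were 67.5% and 63.0%. Between GFP2 and GFP3 the shares were 95.5% and 95.2%, against 69.7% and 62.2% for genes not called, and between GFP3 and GFP4 they were 83.3% and 86.3%, against 62.0% and 58.6%. These shares compare group means and carry no test.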

How the data were processed

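RNA from sorted HSCs was amplified with SMART-Seq v4 and made into libraries with Nextera XT, per the labels' protocols. The submitters' processing notes name kallisto 0.43.0 and GRCm38; neither the unit before the logarithm nor the offset is given in the sources used here. As deposited, the log2 values are quantile normalized, as the values themselves show. They entered limma 3.58.1 (R 4.3.3) unchanged, with 1 mean per group, all 15 libraries, an intensity trend and robust moderation (10 residual df). Linear values are 2 to the power of the log2 value, minus 1. Standard errors are limma's; p-values were adjusted by Benjamini-Hochberg over 27994 genes.

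Genes were named by rule: 10 largest changes each way among called genes with at least 10 ppm and no overlap between libraries, excluding predicted and immunoglobulin genes; up to 4 called members each way per list, textbook markers, constant genes and the leading variable segments. Members and lists were chosen with earlier results of these data known. Same-numbered GFP1 and Total libraries deviated together (r = 0.51, 0.41 and 0.43), and the labels give them the same age and weeks of doxycycline. For different numbers r was -0.36 to -0.04. Deviations were taken from each group's mean and cancel out within a group, so these negative values are no separate evidence. The model was tested on simulated data. A gene that passed the test in some lists is not reported here. Alternatives are in the closing section.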

Additional observations from a re-analysis of the deposited data

How the results depend on the processing

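None of the 66 called genes named under the rule changed direction in the alternatives that could be run for it (18 for 62 genes, 15 or 16 for the 4 variable segments). Of the 66, 23 remained called in the 6 libraries alone, 44 with the replicate block on them, 31 without GFP1 replicate 3 and 66 with the replicate block on 15 libraries. Depth is unknown, genes near the lowest value are understated, and Igkc cannot show a difference. The immunoglobulin covariate and the count without immunoglobulin genes were chosen after seeing the data.

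In the 6 libraries alone there were 20 genes higher and 69 lower, with 8 HSC signature, 2 interferon and 2 ageing genes lower and 0 S-phase, 1 platelet and 1 mitotic gene higher. The replicate block on 15 libraries gave 156 genes higher, 11 S-phase and 2 mitotic genes higher and 10 ageing genes lower. The replicate block on the 6 libraries gave 101 genes higher and 178 lower, 13 HSC signature and 5 interferon genes lower and 17 mitotic genes higher. The covariate gave 46 higher, 227 lower, 13 HSC signature genes lower and 1 S-phase gene higher. Array weights gave 3 S-phase genes, and a filter at a mean of 1 ppm gave 10 ageing genes. Leaving out each GFP1 or Total library gave 25 to 129 genes higher, 172 to 434 lower, 12 to 20 HSC signature, 2 to 5 ageing, 0 to 5 S-phase, 1 to 5 platelet and 0 to 1 mitotic genes. The cause of these shifts was not tested; fewer libraries leave fewer degrees of freedom.

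Differences reversed only in genes that were not called: with array weights Igha -0.053, Ighg2b 0.0098 and Kit -0.062; with the covariate Igha -0.42, Ighg2c -0.049 and Ighg3 -0.52. Leaving out libraries 1 at a time gave ranges that crossed 0 for Igha (-0.15 to 0.58), Ighg2b (-0.58 to 0.28), Ighg2c (-0.19 to 0.64), Ighg3 (-1.58 to 1.85), Ighm (-0.76 to 1.09), Iglc1 (-0.16 to 1.17), Iglc4 (-0.50 to 1.17), Kit (-0.24 to 0.29) and Vwf (-0.18 to 0.25).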
